A study of Mus musculus with 12 samples.

Results

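KC3 and KC4 are mouse lung adenocarcinoma cell lines that the labels place in opposite metastatic classes, KC3 as highly metastatic and KC4 as poorly metastatic. The comparison used the arrays titled for these lines, 3 of KC3 and 3 of KC4, which are 6 of the 12 arrays of the series. KC1 and KC2, which the labels also call highly metastatic, gave the other 6. Every line had the genotype K-rasLA1/+; Cdkn1a-/-, the background is given as 127s, and the cells were grown in RPMI medium with 10% serum. The K-rasLA1 allele recombines by chance in scattered cells and then expresses mutant K-ras, and the deletion of Cdkn1a removes the cell-cycle inhibitor p21. The labels give both alterations to KC3 and KC4 alike. The lines came from primary tumours taken at necropsy (6 tumours of 4 mice are named for the lines together), and no line is assigned to a mouse. Each metastatic class is 1 line in this comparison, so class and line cannot be told apart. The 3 arrays of a line are called biological replicates. Nothing says that they came from separate cultures. The p-values rest on the spread between arrays within a line, pooled over all lines including KC1 and KC2. That spread may be technical.

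Lung adenocarcinoma arises from the epithelium of the distal airways and alveoli, and activated K-ras drives it through the MAPK cascade and other effectors. Cells that leave such tumours have often been described by the balance of epithelial genes (claudins, desmosomes, keratins) and mesenchymal genes (vimentin, matrix proteins), by the matrix they lay down, and by the cytokines they release. Growth-linked programmes, such as sterol synthesis under the SREBP factors, DNA replication under the E2F factors and ribosome production under Myc, are read in the same way from their target genes.

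RNA was measured on 1-colour 3-prime expression arrays, and 1 probe set stood for each of 18193 genes. Signals under 16 were set to 16, and differences are KC3 minus KC4 between the mean log2 signals of the 3 arrays, given with their standard error (SE) from a linear model in limma over the 12 arrays. A gene was called at a Benjamini-Hochberg adjusted p under 0.05 over all genes together with a difference of at least 1. Across genes, Spearman's rank correlation between arrays averaged 0.980 within KC3, 0.982 within KC4 and 0.954 between them. Every array had been scaled to the same trimmed mean of about 500, and the medians of the 6 KC3 and KC4 arrays lay between 94.5 and 124. The poly-A spikes, foreign transcripts added during RNA preparation, had a mean log2 signal of 7.23 ± 0.13 (SD, n = 3) in KC3 against 8.04 ± 0.11 in KC4, 8.00 in KC1 and 7.98 in KC2. The spikes added at hybridisation differed by only -0.02. Setting the poly-A spikes equal added 0.81 to every KC3 minus KC4 difference, and centring each array on its median added 0.13. How much spike was added to each sample is not given, and the part of the spikes in the results was not tested. List values with equal spikes stand beside the deposited ones, with the members called then, and called genes that lost the call are named. Values after centring stand where they turn a direction or move a count by over 1.5 times.

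Markers of the cell types that a lung tumour line could hold were read as a check of the label. The 7 pan-epithelial markers were bright in both lines, with Epcam at signals of 10030, 9979 and 9008 in KC3 and 6714, 6039 and 6335 in KC4 and E-cadherin, Cdh1, at 11520, 10520 and 12390 in KC3 and 15810, 13820 and 16680 in KC4. Their summed signal ran from 93391 to 97451 in KC3 and from 74808 to 88034 in KC4. Sftpc, Nkx2-1 and Napsa, among the markers of alveolar type 2 cells, were dim. The surfactant gene Sftpc gave 108, 103 and 87.6 in KC3 and 90.4, 120.5 and 110.5 in KC4, the lineage factor Nkx2-1 gave 22.6, 36.2 and 27.8 in KC3 and 55.6, 25.7 and 54.2 in KC4, and Napsa lay at the floor on all 6 arrays. The summed signal of the 7 measured type 2 markers ran from 1186 to 1462 in KC3 and from 1243 to 1560 in KC4. Most of it came from the other members of the list, Sftpa1, Sftpb, Abca3, Lamp3 and Slc34a2, of which 1 was not measured. Their values are not given singly here, so the 3 dim genes do not stand for the list. The summed signal of the 3 club cell markers ran from 60.0 to 84.0 in KC3 and from 110 to 163 in KC4. Fibroblast markers summed to between 435 and 715 over 8 genes and endothelial ones to between 385 and 505 over 7 genes, with overlapping ranges in both lines and Pdgfrb, Tie1 and Vwf at the floor. Leukocyte markers summed to 1626 to 1857 in KC3 and 1896 to 2021 in KC4 over 9 genes, and Ptprc, which marks all leukocytes, stayed under 70 on every array. Erythroid markers summed to at most 75.4 over 2 genes. The 5 basal markers were the exception, at 443 to 636 in KC3 against 4710 to 5404 in KC4, almost all of it from Krt14.

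Cdkn1a, the deleted gene, was read first. Its brighter probe set gave 7002, 7025 and 6135 in KC3 and 4831, 3875 and 4359 in KC4, a difference of 0.63 (SE 0.097, adjusted p = 0.000849), under the minimum for a call. Signal was thus present in both lines at the label Cdkn1a-/-. Which part of the gene the probe set covers was not analysed here, and a probe set outside the deleted part checks nothing about the genotype.

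Of the 18193 genes, 1496 (8.22%) were called between KC3 and KC4. In KC3 641 (3.52%) were higher and 855 (4.7%) lower. These shares are the background for each list count that follows. The arrays of the lines did not overlap for 7877 genes (43.3%), among them 1482 of the called ones. For the 30 genes with the largest differences, such a gap was a condition of the choice. Where separate arrays are stated below for called genes, they describe the values and add no support to the call. The median difference of all genes was -0.02. The split of the calls depended on the scaling, with 885 higher and 706 lower after median centring and 5040 higher and 276 lower with equal spikes. Most calls were moderate in size: 358 reached a difference of 2, and 52 reached 4, of which 19 were higher and 33 lower in KC3. In 57 called genes the lower line lay at the floor on its 3 arrays, which makes the difference a lower bound. KC4 was the line at the floor for 26 of these and KC3 for 31.

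**Figure D1:**
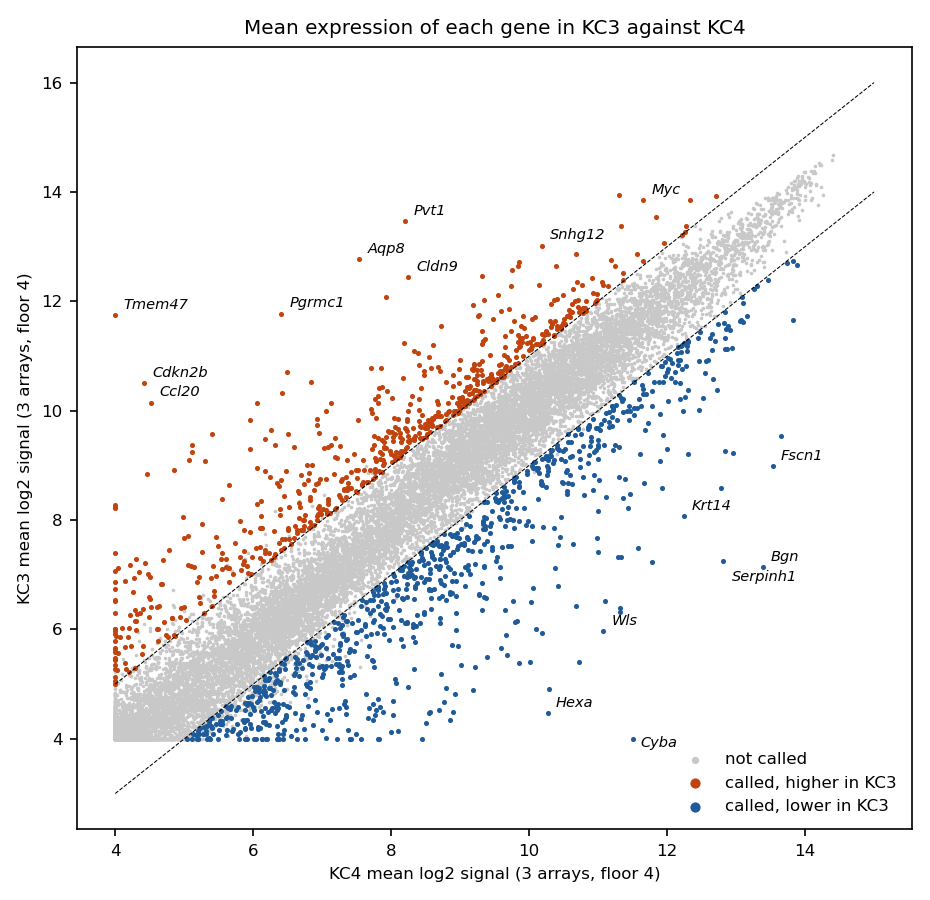
Mean log2 signal of each gene in KC4 (horizontal axis) and KC3 (vertical axis), with 3 arrays per line and 1 point per gene. Genes called higher and lower in KC3 are coloured and the dashed lines mark a log2 difference of 1 either way. Of 18193 genes 641 were called higher and 855 lower.

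On the probe sets that stood for the genes, the gene with the largest difference was Tmem47, a membrane protein of cell junctions. Its signals were 3504, 3425 and 3412 in KC3 and 10.4, 6.03 and 1.58 in KC4. All KC4 arrays lay under the floor, so KC3 was higher by at least 7.75 (SE 0.11, adjusted p = 9.17e-10). KC1 and KC2 had mean signals of 102 and 4449.8, which places KC1 between KC4 and KC3. Pgrmc1, a heme-binding membrane protein, had 3408, 3498 and 3595 in KC3 and 102, 98.2 and 61.2 in KC4, and differed by 5.36 (SE 0.17, adjusted p = 4.67e-08). The water channel gene Aqp8 had 6869, 7094 and 7023 in KC3 and 153, 207 and 203 in KC4 and differed by 5.23 (SE 0.11, adjusted p = 7.50e-09). For both genes the lowest KC3 array stood far above the highest KC4 array, and a gap between the lines was a condition of their choice. Gnmt, which methylates glycine, gave 291, 342 and 300.2 in KC3 and 13.2, 13.6 and 10.1 in KC4 and was higher by at least 4.28 (SE 0.52, adjusted p = 0.000196). Vav3, a guanine nucleotide exchange factor, gave 326, 212 and 395 in KC3 and 1.83, 2.35 and 0.959 in KC4 and was higher by at least 4.24 (SE 0.23, adjusted p = 1.27e-06). The KC4 arrays lay under the floor for both genes. Further genes high in KC3 were Tm4sf1, a surface protein of the tetraspan kind (at least 4.23 ± 0.12), Tnik, a kinase of Wnt signalling (4.16 ± 0.24), and Mb21d2 (4.37 ± 0.28, 1 KC4 array at the floor). A second Mb21d2 probe set and both further Tm4sf1 probe sets did not follow, at -0.27, 0.00 and 0.00.

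On the other side Cyba stood out, the membrane subunit that NADPH oxidases need to make superoxide. Its signals were 9.99, 7.35 and 4.84 in KC3 and 3166, 2640 and 2898 in KC4. KC3 lay at the floor throughout and was lower by at least 7.50 (SE 0.10, adjusted p = 5.18e-10), and KC1 and KC2 had mean signals of 1681 and 3949. Hexa, a lysosomal enzyme subunit that cleaves hexosamines from gangliosides, had 24.4, 25.1 and 17.9 in KC3 and 1188, 1228 and 1283 in KC4 and differed by -5.79 (SE 0.12, adjusted p = 7.88e-09). Fscn1, which bundles actin in filopodia, had 509.5, 448 and 564 in KC3 and 11720, 11570 and 12200 in KC4 and differed by -4.55 (SE 0.088, adjusted p = 5.06e-09). In each case the KC4 values exceeded all KC3 values, as the choice of these genes required. Wls, the carrier that brings Wnt proteins to the cell surface, had 56.6, 56.8 and 76.2 in KC3 and 1964, 2376 and 2145 in KC4 and differed by -5.11 (SE 0.14, adjusted p = 2.69e-08), although 1 of its 3 other probe sets gave 0.34. Other low genes were Acta1 and Myl7. Acta1, the actin of skeletal muscle, had 26.6, 14.5 and 63.9 in KC3 and 1323, 1297 and 1137 in KC4, and Myl7, a myosin light chain of the heart atrium, had 111, 75.6 and 60.3 in KC3 and 2670, 2486 and 2496 in KC4. The difference was -5.38 ± 0.43 for Acta1, with 1 KC3 array at the floor, and -5.00 ± 0.37 for Myl7. The RNA-binding protein gene Rbpms (-5.32 ± 0.13), whose probe set can pick up related transcripts, the AMP deaminase gene Ampd3 (-4.62 ± 0.48, 1 KC3 array at the floor), the membrane protein gene Mxra8 (-4.57 ± 0.33), the transcription factor gene Runx3 (-4.50 ± 0.34, 2 KC3 arrays at the floor) and the water channel gene Aqp1 (-4.46 ± 0.45) complete this side. KC1 and KC2 stood near KC3 for Aqp1, at mean signals of 40.4 and 53.7, and for Runx3, at 13.4 and 11.9, but near KC4 for Rbpms, at 1985 and 1816. Of the 30 leading genes 15 had other probe sets, 30 in all. Of these 23 were called with the same sign, 7 were not called, and the opposite sign was called for 0. Over all 243 called genes named in the text, 143 had 270 other probe sets, of which 161 were called with the same sign, 109 were not called and 0 were called with the opposite sign.

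**Figure D2:**
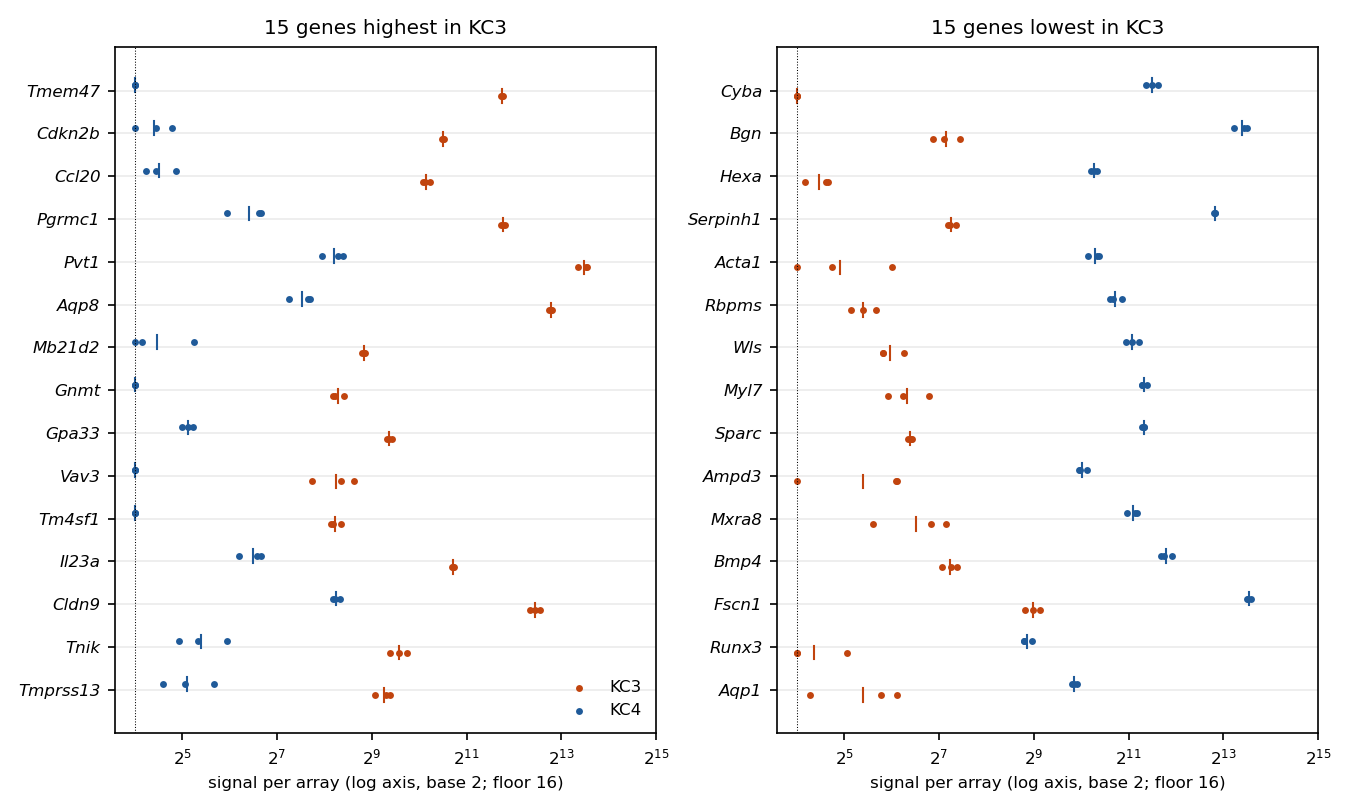
Signal on each array (log axis, base 2, floor of 16) for the 15 genes with the largest differences higher in KC3 (left) and the 15 lower (right), with 3 KC3 and 3 KC4 points per gene and a tick at each line's mean. The 30 genes were chosen among called genes whose KC3 and KC4 arrays do not overlap, so the gap between the lines is a condition of the choice. Of the differences 5 are lower bounds because all 3 arrays of the lower line lay at the floor (dotted line).

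Genes of collagens, of collagen folding and of matricellular proteins were called mainly as lower in KC3. The small proteoglycan biglycan, Bgn, had signals of 137, 118 and 175 in KC3 and 11490, 9620 and 11110 in KC4. It differed by -6.24 (SE 0.14, adjusted p = 1.03e-08), a 75.0-fold ratio of the mean signals. Both other Bgn probe sets were called in the same direction with larger differences, -9.37 or lower (KC3 at the floor) and -8.61. Serpinh1, the chaperone that folds procollagen in the endoplasmic reticulum, had 150.5, 164 and 146 in KC3 and 7135, 7192 and 7265 in KC4 and differed by -5.55 (SE 0.06, adjusted p = 1.74e-10). Sparc, a collagen-binding matricellular protein, had 86.3, 80.8 and 84.8 in KC3 and 2507, 2571 and 2560 in KC4 and differed by -4.92 (SE 0.05, adjusted p = 1.74e-10). The 3 genes were bright in KC1 and KC2 as well, and the KC3 difference from the mean of KC1 and KC2 was -5.68 (SE 0.12, adjusted p = 5.79e-09) for Bgn, -4.94 (SE 0.052, adjusted p = 1.38e-10) for Serpinh1 and -4.52 (SE 0.044, adjusted p = 1.21e-10) for Sparc. That contrast shares the KC3 arrays with the main one, and it called 8.95% of all genes. The other Sparc probe sets gave -6.06 and -0.25.

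Genes for the folding and crosslinking of collagen had a median of -0.44 that became 0.37 with equal spikes, where 3 were called higher and 4 lower. After centring 2 were called higher. As deposited, 5 of the 22 measured were lower and 1 higher in KC3, 27.3% called against 8.22% of all genes. The lower ones were Serpinh1, Sparc, the prolyl hydroxylase subunit gene P4ha3 (-3.21 ± 0.30, 2 KC3 arrays at the floor), P3h4 (-1.86 ± 0.31) and Pcolce, an enhancer of procollagen processing (-1.47 ± 0.081). The higher one was Plod2, the lysyl hydroxylase that prepares stable crosslinks, at 1296, 1373 and 1295 in KC3 and 209.8, 266 and 266 in KC4 (2.43 ± 0.085). KC1 and KC2 had more Plod2 signal than either line, 3603 and 3765. Collagen genes had a median of -0.24 (0.57 with equal spikes, where 4 were called higher and 2 lower). Of the 26 measured, 4 were lower and 0 higher, 15.4% called against 8.22% of all genes. They were the basement membrane chains Col4a1, at 1671, 1650 and 1660 in KC3 and 5475, 6128 and 6387 in KC4 (-1.85 ± 0.087), Col4a2 (-1.39 ± 0.051) and Col4a5 (-1.30 ± 0.24), and Col6a1 (-3.33 ± 0.34, 1 KC3 array at the floor). Col4a5 was not called with the mean of its probe sets. Of the 15 laminin and basement membrane genes 1 was called (6.67%, against 8.22% of all genes; 5 were called higher and 0 lower with equal spikes), the laminin chain Lama3, higher in KC3 at 2935, 3045 and 2762 in KC3 and 994, 971 and 965 in KC4 (1.58 ± 0.039). A second Lama3 probe set gave -0.99, so the direction rests on the probe set, and Lama3 was not called with the mean of both. Pcolce, Col4a2 and Col4a5 lost the call with equal spikes.

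The median of 30 matricellular proteins and proteoglycans was -0.48 (0.33 with equal spikes, where 4 were called higher and 2 lower). As deposited, 5 were lower and 0 higher, 16.7% called against 8.22% of all genes. Beside Bgn they included Ccn1, a secreted target of YAP (-1.19 ± 0.096), Ccn4, a secreted target of Wnt (-3.60 ± 0.35, 2 KC3 arrays at the floor), and Tgfbi (-1.29 ± 0.20). Tgfbi was not called at a floor of 64. Matrix proteases and their inhibitors went both ways, with 3 of 29 higher and 5 lower, 27.6% called against 8.22% of all genes. Their median of -0.04 turned to 0.09 after centring, where 5 were higher. It was 0.77 with equal spikes, where 8 were called higher and 3 lower. Mmp14, the membrane-anchored collagenase that activates other proteases, had 148, 175 and 161 in KC3 and 2459, 2430 and 2633 in KC4 and differed by -3.96 (SE 0.077, adjusted p = 5.06e-09). Adam19 had 84.8, 78.5 and 54.9 in KC3 and 988, 838 and 899 in KC4 and differed by -3.66 (SE 0.33, adjusted p = 3.06e-05). The inhibitor Timp3 had 429.6, 442 and 455 in KC3 and 2534, 2430 and 2603 in KC4 and differed by -2.51 (SE 0.54, adjusted p = 0.00564), with KC1 and KC2 lower than both lines, at 54.2 and 60.0. Higher in KC3 were the metalloprotease Adam12 (1.59 ± 0.11), the urokinase gene Plau (1.52 ± 0.088) and the collagenase Mmp13 (1.51 ± 0.13). Mmp11, another matrix metalloprotease, was lower (-1.25 ± 0.18). Ccn1, Tgfbi and Mmp11 lost the call with equal spikes.

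Genes of epithelial junctions were split. Of 41 measured, 8 were higher and 4 lower in KC3, 29.3% called against 8.22% of all genes. Their median was 0.20 (1.01 with equal spikes, where 21 were called higher and 2 lower). Cldn9, a claudin of tight junctions, gave 5951, 5554 and 5212 in KC3 and 321, 298 and 292 in KC4 and differed by 4.20 (SE 0.18, adjusted p = 2.56e-07). KC1 and KC2 had mean signals of only 66.8 and 70.9. Ap1m2, the adaptor subunit that sorts proteins to the basolateral membrane, gave 4191, 4327 and 4061 in KC3 and 771, 600.5 and 596 in KC4 and differed by 2.69 (SE 0.093, adjusted p = 8.89e-08). The claudins Cldn3 (1.39 ± 0.067), Cldn4 (1.34 ± 0.052) and Cldn23 (1.27 ± 0.14), the epithelial transcription factor Ovol1 (1.82 ± 0.14), the desmosomal cadherin Dsg2 (1.10 ± 0.035) and the desmosomal plaque protein Pkp3 (1.02 ± 0.087) were the other 6. The 4 lower ones were the epithelial transcription factor Ehf, at 84.3, 104 and 97.2 in KC3 and 547, 752 and 702 in KC4 (-2.80 ± 0.20), P-cadherin, Cdh3 (-2.63 ± 0.43, 1 KC3 array at the floor), the envelope protein gene Evpl (-1.24 ± 0.054) and the junction scaffold gene Tjp3 (-1.11 ± 0.11). Tjp3 was not called after median centring, quantile normalization or with a pseudocount. Pkp3 was not called after quantile normalization, with a pseudocount, or without KC3 replicate 3 (0.99) or without KC4 replicate 2 (0.94). Dsg2, with another probe set at -0.19, was not called with the mean of its probe sets. Epcam, a member that was not called, differed by 0.60 ± 0.074, and Cdh1, likewise, by -0.43 ± 0.13. Evpl and Tjp3 lost the call with equal spikes.

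Serine proteases anchored in epithelial membranes, and their inhibitors and kallikreins, had the highest median of the 37 functional lists, 0.88 over 13 genes. Of these, 5 were higher and 1 lower, 46.2% called against 8.22% of all genes (8 were called higher and 0 lower with equal spikes). Tmprss11e gave 4981, 4854 and 5093 in KC3 and 856, 809 and 903 in KC4 and differed by 2.54 (SE 0.046, adjusted p = 3.65e-09). Tmprss13 gave 664, 634 and 540.3 in KC3 and 50.9, 24.2 and 33.6 in KC4 and differed by 4.14 (SE 0.43, adjusted p = 7.12e-05), with KC1 and KC2 near KC4 at 22.1 and 62.0. The lines did not overlap for either gene. Prss22 (1.35 ± 0.083) and the kallikrein Klk6 (1.27 ± 0.15) were also higher. Tmprss2, the one lower member, had 136, 134 and 216 in KC3 and 276, 397 and 385 in KC4 (-1.14 ± 0.20) and was not called with the mean of its probe sets. Tmprss2 lost the call with equal spikes.

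Keratins and mesenchymal genes were called mainly as lower in KC3. Krt14, a keratin of basal cells, gave 274, 242 and 291 in KC3 and 5228, 4504 and 4791 in KC4 and differed by -4.17 (SE 0.35, adjusted p = 1.81e-05). Its probe set can pick up related transcripts, and its other probe sets gave -1.28 and -3.68. The other basal markers did not follow it: Krt5 (0.06 ± 0.18) and Trp63 (-0.11 ± 0.26) were not called, Krt15 lay at the floor, and Ngfr was called higher (1.74 ± 0.50) but not at a floor of 64 or with the mean of its probe sets, nor without KC3 replicate 1 (1.78), without KC3 replicate 3 (1.32), without KC4 replicate 2 (1.64) or without KC4 replicate 3 (1.64). Krt23 had 158, 170 and 189 in KC3 and 2037, 2001 and 2085 in KC4 and differed by -3.57 (SE 0.09, adjusted p = 1.75e-08). Of 16 keratins 3 were lower and 0 higher, the last being Krt17 (-1.20 ± 0.32), which lost its call at a floor of 64, with the mean of its probe sets, with quantile normalization, with a pseudocount, and without KC3 replicate 1 (-1.09), without KC3 replicate 2 (-1.18), without KC4 replicate 1 (-1.07) or without KC4 replicate 2 (-1.14). The keratin share called was 18.75%, against 8.22% of all genes. The median of the keratins was -0.09, and turned to 0.04 after centring and 0.72 with equal spikes, where 2 were called higher and 2 lower. Krt17 lost the call with equal spikes.

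Vim, the intermediate filament gene of mesenchymal cells, had signals of 701, 669.9 and 867 in KC3 and 13790, 11870 and 13040 in KC4 and differed by -4.12 (SE 0.19, adjusted p = 5.34e-07). S100a4, a calcium-binding protein of motile cells, had 465, 360.1 and 405 in KC3 and 3360, 3131 and 3285 in KC4 and differed by -3.00 (SE 0.081, adjusted p = 2.59e-08). The KC4 arrays were above the KC3 arrays throughout. The median of 27 mesenchymal genes was -0.0039 and turned to 0.13 after centring and 0.81 with equal spikes, where 6 were called higher and 4 lower. As deposited, 6 were lower and 1 higher, 25.9% called against 8.22% of all genes, while the other 20 members were not called. The further lower ones were the endocytic adaptor Dab2 (-4.14 ± 0.38), the ecto-nucleotidase Nt5e (-3.07 ± 0.10), N-cadherin, Cdh2 (-1.53 ± 0.096), and the adhesion molecule Ncam1 (-1.30 ± 0.16), which was not called with the mean of its probe sets. The higher one was Snai2, a repressor of E-cadherin, at 1687, 1707 and 1460 in KC3 and 456, 434 and 546 in KC4 (1.76 ± 0.15). KC3 had the brightest Snai2 of the lines, with KC1 and KC2 at 906 and 17.8, and its second probe set gave 0.56. Cdh2 and Ncam1 lost the call with equal spikes.

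Of 26 genes of alveolar and club cells 1 was higher and 3 lower, 15.4% called against 8.22% of all genes. After centring 2 were called higher and 2 lower. Their median was -0.26 (0.55 with equal spikes, where 6 were called higher and 1 lower). Cebpa, a differentiation factor of the alveolar epithelium, gave 262, 268 and 272 in KC3 and 29.7, 66.5 and 14.3 in KC4 and was higher by 3.08 (SE 0.43, adjusted p = 0.000444, 1 KC4 array at the floor). The water channel of type 1 cells, Aqp5, gave 457, 399 and 378 in KC3 and 1470, 1418 and 1432 in KC4 (-1.81 ± 0.13), and the transcription regulators Foxa2 (-1.46 ± 0.32) and Id2 (-1.10 ± 0.10) were also lower. Id2 was not called after median centring or with the mean of its probe sets. Of 24 mucin and gut-type genes 2 were higher, the A33 antigen gene Gpa33, at 663, 639 and 687 in KC3 and 37.6, 31.9 and 34.8 in KC4 (4.25 ± 0.25), and the membrane mucin gene Muc1 (1.21 ± 0.11), and 1 was lower, the tetraspanin gene Tspan8 (-1.37 ± 0.086). This share of 12.5% compares with 8.22% over all genes, and with equal spikes 9 were called higher and 0 lower. Foxa2, Id2 and Tspan8 lost the call with equal spikes.

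Sterol synthesis had the lowest median of the 37 functional lists. Of 20 measured genes of cholesterol synthesis and uptake 12 were lower in KC3 and 0 higher, 60% called against 8.22% of all genes. The difference was negative for all 20, the KC3 and KC4 arrays did not overlap for any of them (43.3% of all genes did not overlap), and the median was -1.36, against -0.02 for all genes. It was -1.23 after median centring and -0.55 with equal spikes, with 11 and 5 members still called lower. Hmgcs1, which makes the precursor of mevalonate, had signals of 2477, 2321 and 2600 in KC3 and 6719, 6687 and 6526 in KC4 and differed by -1.43 (SE 0.041, adjusted p = 3.37e-08). Mvd, which makes isopentenyl diphosphate, had 178, 218 and 193 in KC3 and 1234, 951 and 988 in KC4 and differed by -2.42 (SE 0.12, adjusted p = 9.15e-07). Idi1, which isomerises that product, had 1392, 1289 and 1300 in KC3 and 5475, 4697 and 4987 in KC4 and differed by -1.93 (SE 0.08, adjusted p = 2.44e-07). In each the highest KC3 array was under the lowest KC4 array. Fdft1, which makes squalene, showed the largest difference of the pathway, 724, 623 and 552 in KC3 and 4453, 3810 and 4038 in KC4 (-2.70 ± 0.098). Its 3 other probe sets gave 0.16, -0.82 and -2.51. Further called enzymes along the route were Mvk (-2.30 ± 0.31) and Pmvk (-1.10 ± 0.16), which phosphorylate mevalonate, Fdps, which builds farnesyl diphosphate (-1.73 ± 0.096), Lss, which closes the sterol ring (-1.29 ± 0.084), and the later enzymes Cyp51 (-1.51 ± 0.085), Msmo1 (-1.44 ± 0.039) and Nsdhl (-1.87 ± 0.057). Insig1, the sterol sensor that holds SREBP in the endoplasmic reticulum and is itself an SREBP target, was lower too (-1.69 ± 0.095). Pmvk was not called after median centring or without KC3 replicate 1 (-0.97) or without KC4 replicate 1 (-0.96), and Fdps was not called with the mean of its probe sets. KC1 and KC2 had Hmgcs1 means of 6432 and 7277 and Idi1 means of 4773 and 4456, and KC3 minus the mean of KC1 and KC2 was -1.47 (SE 0.036, adjusted p = 1.23e-08) and -1.80 (SE 0.069, adjusted p = 1.28e-07). Hmgcs1, Pmvk, Fdps, Lss, Cyp51, Msmo1 and Insig1 lost the call with equal spikes.

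The stretches upstream of 3 of these enzymes are shown because the members shared a short element there. Promoter sequences came from RefSeq (GRCm38.p6) and were searched on both strands over the 250 bases before the gene start for CCAAT, the element of the factor NF-Y, and TCACNCCAC, a form of the sterol response element. Capitals mark the matches, and CCAAT on the other strand reads ATTGG. The windows are chr13:119690101-119690325 on the plus strand for Hmgcs1, chr13:8885546-8885605 on the plus strand for Idi1 and chr8:122443430-122443497 on the minus strand for Mvd, and the sequences run 5′ to 3′ along the gene.
Hmgcs1: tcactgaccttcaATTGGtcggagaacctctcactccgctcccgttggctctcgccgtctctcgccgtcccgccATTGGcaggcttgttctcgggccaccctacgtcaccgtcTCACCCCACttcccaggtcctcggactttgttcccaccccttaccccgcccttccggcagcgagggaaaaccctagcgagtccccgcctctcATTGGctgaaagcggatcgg
Idi1: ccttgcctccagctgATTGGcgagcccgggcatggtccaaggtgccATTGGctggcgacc
Mvd: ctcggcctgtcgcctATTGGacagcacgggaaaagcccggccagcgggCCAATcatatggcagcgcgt
A promoter was listed for 16 of the 20 measured members, and CCAAT stood in 16 of the 16, against 39.4% of 14452 gene promoters of the same length. Among the called members it was 10 of 10. TCACNCCAC stood in 1 of the 16, Hmgcs1, against 1.27% of all. A match describes the letters in the window and is no evidence of binding in either line.

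Fatty acid synthesis, the other arm under SREBP control, held 5 of 17 genes called lower and 0 higher (3 lower after centring). The share was 29.4% called against 8.22% of all genes. The median of -0.69 became 0.12 with equal spikes, where 0 were called higher and 1 lower. Fads2, the desaturase that begins the long polyunsaturated fatty acids, had 477, 473 and 411 in KC3 and 1995, 1901 and 1983 in KC4 and differed by -2.11 (SE 0.058, adjusted p = 2.69e-08). Scd1 (-1.15 ± 0.043) and Scd2 (-1.09 ± 0.084), which make monounsaturated fatty acids, Srebf1, the gene of the controlling factor (-1.28 ± 0.072), and Acss2, which makes acetyl-CoA from acetate (-1.01 ± 0.099), were the others. Neither Scd2 nor Acss2 was called after median centring, and Acss2 was not called after quantile normalization, with a pseudocount, or without KC3 replicate 1 (-0.92), without KC4 replicate 1 (-0.96) or without KC4 replicate 2 (-0.99). Scd1, Scd2, Srebf1 and Acss2 lost the call with equal spikes.

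**Figure D3:**
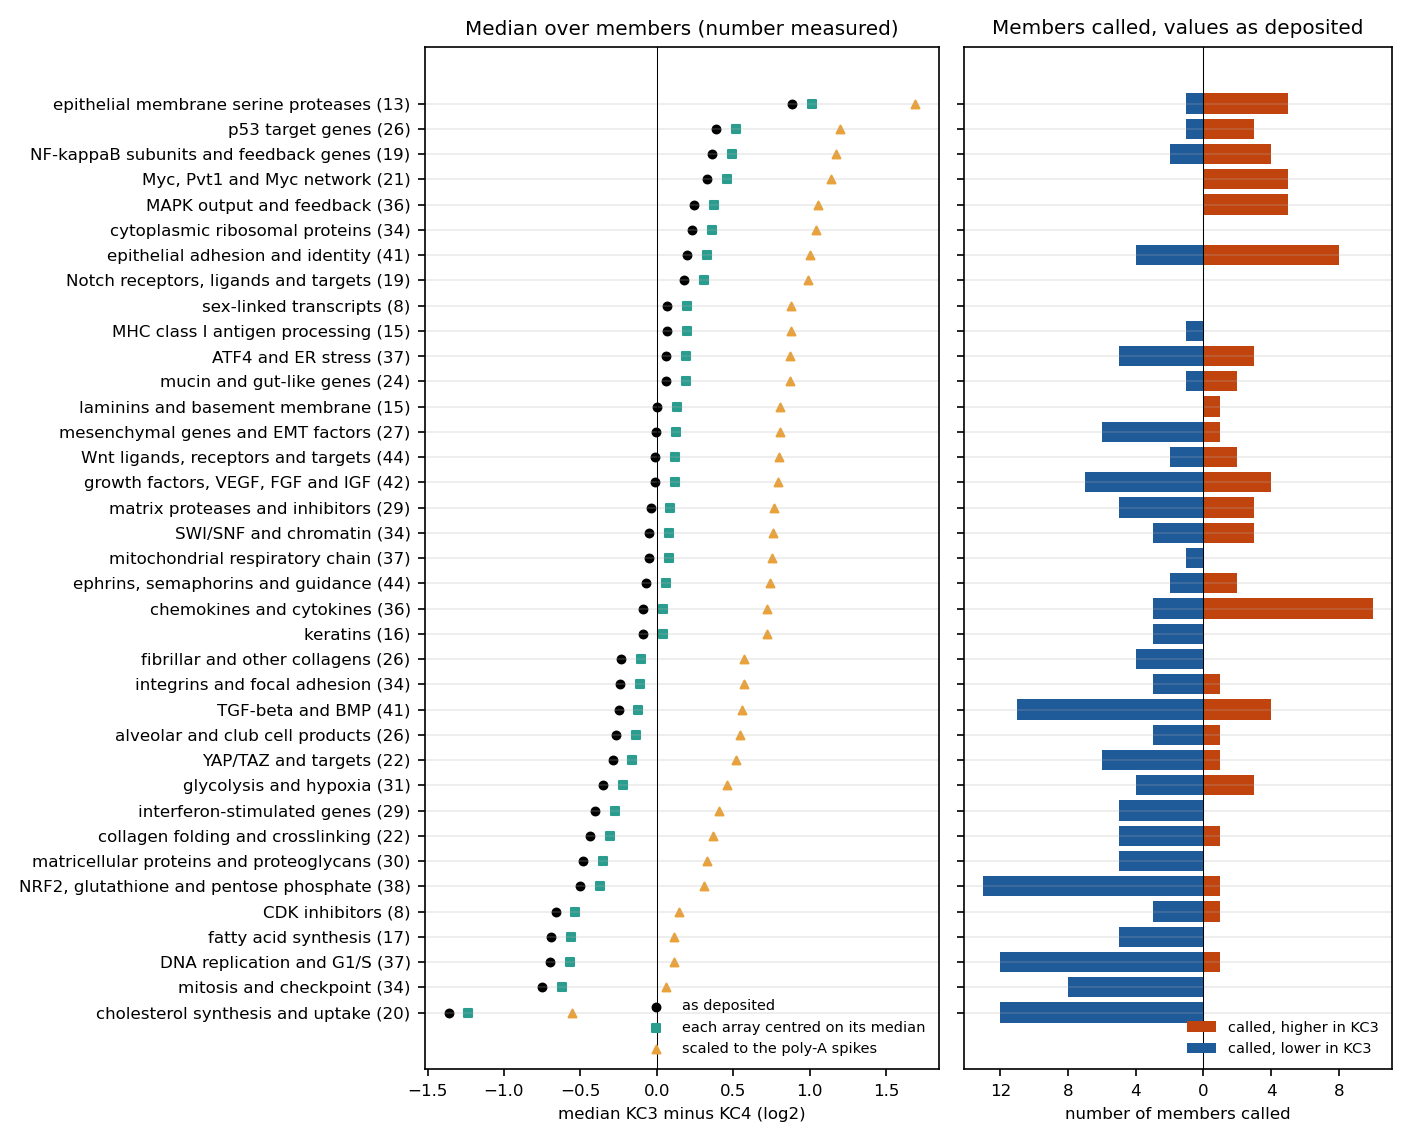
Median log2 difference KC3 minus KC4 of the measured members of each functional list (left), as deposited, after median centring and with equal poly-A spikes, and the number of members called higher and lower (right). Cholesterol synthesis lies lowest at -1.36 and stays below 0 under each of these scalings, whereas the fatty acid, DNA replication, mitosis and NRF2 medians turn positive with equal spikes.

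Replication genes were called mainly as lower in KC3. Of 37 genes of DNA replication and the G1/S transition 12 were lower and 1 higher, 35.1% called against 8.22% of all genes. The median was -0.70 (0.11 with equal spikes, where 1 was called higher and 2 lower). Mcm5, a subunit of the replicative helicase, had 2455, 2202 and 2169 in KC3 and 7961, 7415 and 8247 in KC4 and differed by -1.79 (SE 0.082, adjusted p = 4.64e-07). Uhrf1, which guides DNA methylation at the replication fork, had 1077, 893 and 974 in KC3 and 3777, 3664 and 4031 in KC4 and differed by -1.97 (SE 0.068, adjusted p = 8.65e-08). Ccne2, cyclin E2, had 276, 249 and 276 in KC3 and 1374, 1535 and 1316 in KC4 and differed by -2.40 (SE 0.092, adjusted p = 1.54e-07). For all 3 the KC4 arrays were the brighter ones. The helicase subunits Mcm2 (-1.36 ± 0.067), Mcm4 (-1.45 ± 0.22) and Mcm6 (-1.0 ± 0.15), the loading factor Cdc6 (-1.43 ± 0.082), the helicase partner Gins2 (-1.63 ± 0.068), the ribonucleotide reductase subunits Rrm1 (-1.31 ± 0.086) and Rrm2 (-1.01 ± 0.072), and the transcription factors E2f1 (-1.30 ± 0.12) and E2f8 (-1.54 ± 0.048) were also lower. Rrm2 lay near the minimum difference and was not called after median centring, nor without KC3 replicate 1 (-1.0), without KC3 replicate 2 (-0.96), without KC4 replicate 1 (-1.0) or without KC4 replicate 3 (-0.99), where values just under the minimum round to it. Mcm6 was not called after median centring, with a pseudocount, or without KC3 replicate 2 (-0.87) or without KC4 replicate 1 (-0.90), and Rrm1 was not called with the mean of its probe sets. The one higher member was Ccnd2, cyclin D2, at 819, 879 and 753 in KC3 and 288, 293 and 315 in KC4 (1.45 ± 0.12). Mcm5, Mcm2, Mcm4, Mcm6, Cdc6, Gins2, Rrm1, Rrm2, E2f1 and E2f8 lost the call with equal spikes.

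A pair of replication promoters is shown because the E2F element, searched as TTTNNCGC on both strands, stood in 8 of the 28 promoters listed for these genes against 6.94% of all promoters. Among the called members it was 4 of 9, and CCAAT stood in 17 of the 28. The windows are chr8:75109341-75109382 for Mcm5 and chr17:56303266-56303303 for Uhrf1, both on the plus strand, with matches in capitals. The Mcm5 window holds 2 matches that overlap, 1 on each strand.
Mcm5: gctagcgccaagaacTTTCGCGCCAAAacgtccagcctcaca
Uhrf1: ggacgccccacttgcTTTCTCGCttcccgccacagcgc

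Of 34 genes of mitosis and its checkpoint 8 were lower and 0 higher, 23.5% called against 8.22% of all genes. All 34 differences were negative, with a median of -0.75 that became 0.06 with equal spikes, where 0 were called higher and 0 lower. The kinase gene Melk had 678, 704 and 620.4 in KC3 and 2232, 1963 and 1974 in KC4 (-1.62 ± 0.065) and the microtubule depolymerase gene Kif2c had 698, 712 and 677 in KC3 and 1958, 1937 and 1811 in KC4 (-1.45 ± 0.052). Cyclin B2, Ccnb2 (-1.34 ± 0.11), the checkpoint kinase Ttk (-1.14 ± 0.085), the motor Kif20a (-1.17 ± 0.085), the kinetochore protein Nuf2 (-1.34 ± 0.29), survivin, Birc5 (-1.03 ± 0.093), and the proliferation marker Mki67 (-1.11 ± 0.095) were the others. Kif2c was not called with the mean of its probe sets, Birc5 and Mki67 were not called after median centring, and Birc5 was not called without KC3 replicate 3 (-0.92). Melk, Kif2c, Ccnb2, Ttk, Kif20a, Nuf2, Birc5 and Mki67 lost the call with equal spikes.

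Of 8 inhibitors of cyclin-dependent kinases 1 was higher and 3 lower in KC3, 50% called against 8.22% of all genes. Their median was -0.66 (0.15 with equal spikes, where 2 were called higher and 0 lower). Cdkn2b, which encodes p15 and blocks the kinases that start the cell cycle, had signals of 1467, 1442 and 1438 in KC3 and 11.8, 21.8 and 27.8 in KC4. KC3 was higher by 6.09 (SE 0.20, adjusted p = 7.20e-08, 1 KC4 array at the floor), with KC1 dim and KC2 bright, at mean signals of 17.7 and 1458. Its neighbour Cdkn2a, which shares the locus, was dim in both lines and lower in KC3, at 24.1, 34.1 and 36.9 in KC3 and 70.6, 74.2 and 70.2 in KC4 (-1.20 ± 0.15), and was not called at a floor of 64, with a pseudocount or after quantile normalization. Mtap, the methylthioadenosine phosphorylase gene beside them, was lower in KC3, at 3345, 3327 and 3078 in KC3 and 15670, 13360 and 14810 in KC4 (-2.17 ± 0.06), and its 3 other probe sets were called in the same direction. Mtap was looked at after the values were seen. Among 13 genes of this neighbourhood with a mean log2 signal of at least 8 in a line, Hacd4 (-2.23), Mtap and Cdkn2b were called and the others differed by -0.80 (Ift74) to 0.37 (Jun). Cdkn2c (-1.71 ± 0.10) and Cdkn2d (-1.13 ± 0.04), of the same family, were lower in KC3. Cdkn1b, p27, was not called (-0.73 ± 0.073), nor were Cdkn1c (-0.49 ± 0.064) and Cdkn3 (-0.60 ± 0.068). Cdkn2a, Cdkn2c and Cdkn2d lost the call with equal spikes.

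Myc and the non-coding gene Pvt1 beside it were both higher in KC3. Myc, a driver of ribosome production and growth, had signals of 14750, 14770 and 14770 in KC3 and 3403, 2998 and 3253 in KC4 and differed by 2.20 (SE 0.062, adjusted p = 2.88e-08). Pvt1 had 11690, 11930 and 10460 in KC3 and 335, 246 and 311 in KC4 and differed by 5.27 (SE 0.15, adjusted p = 2.69e-08), and its 4 other probe sets differed by 3.84 to 5.24. KC3 exceeded the mean of KC1 and KC2 as well, by 1.69 (SE 0.054, adjusted p = 4.34e-08) for Myc and 3.95 (SE 0.13, adjusted p = 4.54e-08) for Pvt1. Among 14 genes of this neighbourhood with a mean log2 signal of at least 8 in a line, Trib1, a pseudokinase gene (1.59), and Tmem71 (1.12) were also higher, Ccn4 was lower (-3.60), and the other 9 differed by -0.46 (Nsmce2) to 0.95 (Mtss1) and were not called. The immediate neighbours were Lratd2 at 0.63 and Cyrib at 0.16. DNA copy number was not measured. Of 21 genes of the Myc network 5 were higher and 0 lower, 23.8% called against 8.22% of all genes. Their median was 0.33 (0.46 centred and 1.14 with equal spikes, where 13 were called higher and 0 lower). The 5 were Myc and Pvt1 themselves, Max and the Max-binding repressors Mxi1 (1.29 ± 0.071) and Mxd1 (1.22 ± 0.15). Max, the partner of Myc, had 2969, 2908 and 2174 in KC3 and 979, 834 and 943 in KC4 (1.54 ± 0.15). The other 16 members were not called as deposited, among them Odc1, Ncl, Npm1, Nop56, Fbl, Cad, Srm, Tfrc and Cdk4.

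Genes named Snhg, Gas5 or Zfas1, which host small nucleolar RNAs in their introns, formed a further bright group. The group was gathered by name after the values were seen, and hosts with other names were not gathered. Zfas1 had signals of 15590, 15980 and 15780 in KC3 and 2727, 2302 and 2596 in KC4 and differed by 2.64 (SE 0.078, adjusted p = 3.83e-08). Snhg12 had 8758, 8823 and 7421 in KC3 and 1111, 1113 and 1266 in KC4 and differed by 2.84 (SE 0.089, adjusted p = 4.71e-08). Snhg5 had 10620, 10150 and 11140 in KC3 and 2491, 2469 and 2817 in KC4 and differed by 2.04 (SE 0.077, adjusted p = 1.41e-07). The KC3 arrays were several times the KC4 arrays in each, and KC1 and KC2 stood nearer to KC4, at 1904 and 899.7 for Snhg12 and 2341 and 1318 for Snhg5. Of the 16 measured hosts named Snhg, Gas5 or Zfas1, 9 were higher, 1 lower and 6 not called, with a median of 1.13. It was 1.26 after median centring and 1.94 with equal spikes. Snhg16 (2.67 ± 0.12), Snhg17 (2.12 ± 0.088), Gas5 (1.52 ± 0.16), Snhg8 (1.53 ± 0.13), Snhg1 (1.22 ± 0.095) and Snhg6 (1.03 ± 0.14) were higher. Gas5 was not called with the mean of its probe sets, nor was Snhg5 (another probe set gave -0.12 and -0.093), and Snhg6 was not called after quantile normalization or without KC3 replicate 3 (0.89). The lower one was Snhg14 (-1.90 ± 0.086 or lower), dim in both lines and not called at a floor of 64. Ribosomal protein genes held 0 calls by limma among 34 measured, with a median of 0.23 and an unadjusted p under 0.05 for 13, although 22 were called higher with equal spikes. Rpl38, the brightest, gave 26000, 26340 and 26650 in KC3 and 23730, 18910 and 22600 in KC4 (0.28 ± 0.13).

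Outputs of the MAPK cascade held 5 of 36 genes higher in KC3 and 0 lower, 13.9% against 8.22% called over all genes, with a median of 0.24 (1.05 with equal spikes, where 21 were called higher and 0 lower). After median centring 9 were called higher. Egr1, an immediate early transcription factor, had 5637, 5159 and 4958 in KC3 and 1737, 1490 and 1760 in KC4 and differed by 1.66 (SE 0.068, adjusted p = 2.20e-07). The AP-1 subunit Fosl1 had 3664, 3723 and 3399 in KC3 and 1649, 1635 and 1765 in KC4 and differed by 1.09 (SE 0.083, adjusted p = 1.03e-05). Spred3, an inhibitor of the cascade (1.48 ± 0.18), and Egr3 (1.27 ± 0.12) were higher as well, and Egr3, with a second probe set at -0.37, was not called with the mean of its probe sets.

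Cytokine genes were called in both directions, 10 of 36 higher and 3 lower in KC3, 36.1% called against 8.22% of all genes. Their median of -0.09 turned to 0.04 after centring and 0.72 with equal spikes, where 12 were called higher and 1 lower. Ccl20, a chemokine that attracts dendritic and lymphoid cells, had signals of 1112, 1205 and 1086 in KC3 and 18.9, 21.9 and 29.2 in KC4 and differed by 5.63 (SE 0.51, adjusted p = 3.05e-05). Il23a, a subunit of interleukin 23, had 1651, 1669 and 1699 in KC3 and 73.7, 102 and 96.2 in KC4 and differed by 4.22 (SE 0.13, adjusted p = 4.71e-08). Csf2, GM-CSF, had 1166, 1196 and 1037 in KC3 and 162, 20.1 and 90.0 in KC4 and differed by 4.09 (SE 0.61, adjusted p = 0.000679). For each gene all KC3 arrays exceeded all KC4 arrays, which was a condition of the choice for Ccl20 and Il23a. The KC4 values of Csf2 were scattered. Cxcl1, a neutrophil attractant, had 7338, 7588 and 7443 in KC3 and 1696, 1431 and 1834 in KC4 and differed by 2.18 (SE 0.10, adjusted p = 5.34e-07), and the platelet chemokine gene Ppbp had 306, 316 and 382 in KC3 and 15.7, 107 and 60.0 in KC4 (2.83 ± 0.55, 1 KC4 array at the floor). Csf3, G-CSF (1.97 ± 0.20), Il1a (1.72 ± 0.50), Lif (1.28 ± 0.081), the interleukin 1 antagonist Il1rn (1.19 ± 0.08) and Csf1 (1.02 ± 0.088) were the other higher ones. Lif, Il1rn and Csf1 were not called with the mean of their probe sets, Csf1 was not called after quantile normalization or without KC3 replicate 3 (0.98) or without KC4 replicate 3 (0.97), and Il1a lost its call without any 1 of the 6 arrays (1.64 to 1.76). KC3 also exceeded the mean of KC1 and KC2 in Ccl20, by 4.62 (SE 0.44, adjusted p = 2.94e-05), and in Il23a, by 2.88 (SE 0.11, adjusted p = 1.50e-07), but not in Csf2, at 0.056 (SE 0.53, adjusted p = 0.992).

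The 3 lower cytokine genes were Cxcl10, an interferon-induced chemokine, at 7.26, 10.5 and 12.3 in KC3 and 97.1, 111 and 116 in KC4 (-2.75 ± 0.48 or lower), Cx3cl1 (-1.02 ± 0.064) and Cxcl17 (-1.67 ± 0.51). None of the 3 kept its call throughout. Cxcl10 lost it at a floor of 64, and Cx3cl1 after median centring, with a pseudocount, with the mean of its probe sets and without KC3 replicate 2 (-0.98) or without KC4 replicate 3 (-1.0). Cxcl17, whose arrays overlapped, lost it at a floor of 64, with the 6 arrays alone and without KC3 replicate 1 (-1.49), without KC3 replicate 2 (-1.39), without KC4 replicate 2 (-1.45) or without KC4 replicate 3 (-1.33). Cx3cl1 and Cxcl17 lost the call with equal spikes. The Ccl20 promoter is shown because it holds the element of NF-kappaB, searched as GGGNNTTCC on both strands, in the window chr1:83116671-83116709 on the plus strand. Capitals mark the match, which lies on the other strand.
Ccl20: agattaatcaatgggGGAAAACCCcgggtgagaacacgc
The element stood in 3 of the 27 cytokine promoters listed, those of Ccl9, Ccl20 and Cxcl10, against 6.84% of all.

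**Figure D4:**
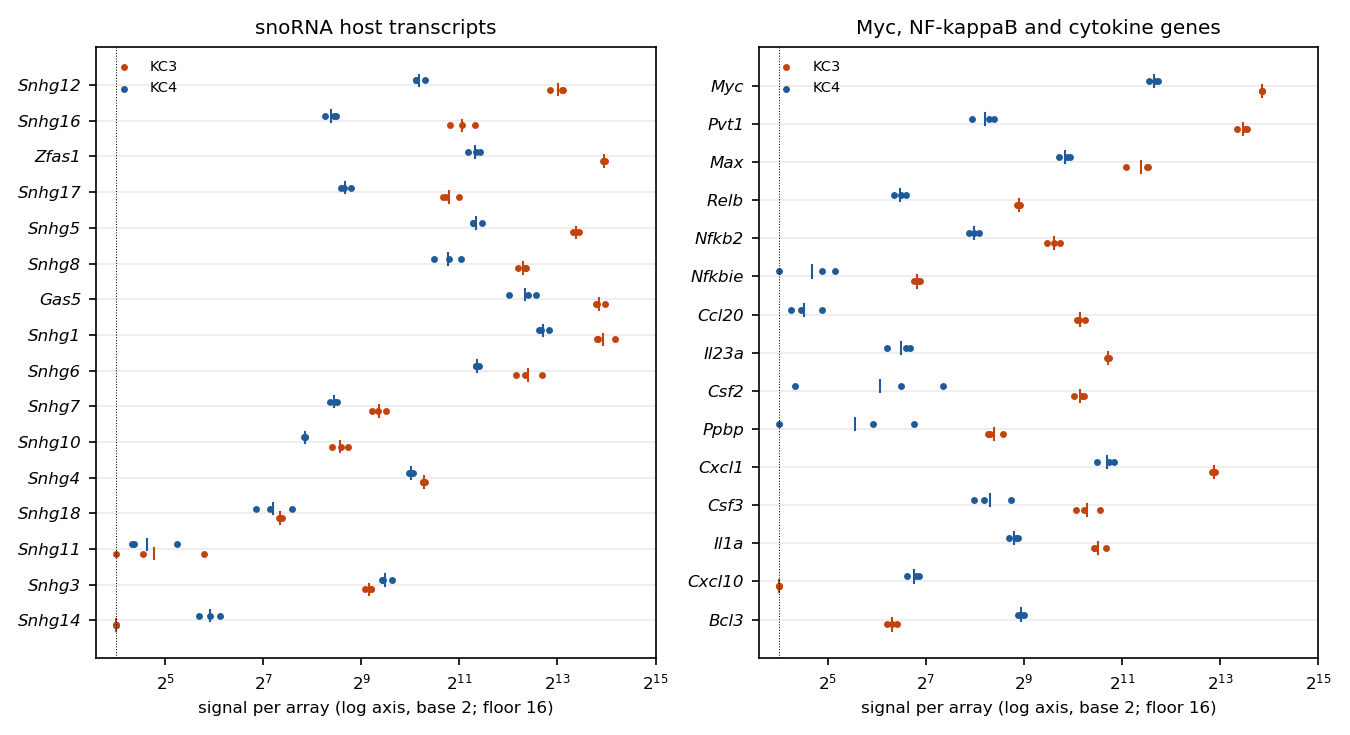
Signal on each array (log axis, base 2, floor of 16 as a dotted line) of the 16 snoRNA host genes named Snhg, Gas5 or Zfas1 (left) and of Myc, NF-kappaB and cytokine genes (right), with 3 points and a tick at the mean for each line. The KC3 points lie right of the KC4 points for the 9 host genes called higher. On the right they do so for all genes shown except Cxcl10 and Bcl3. The genes on the right were picked for display, so their split does not describe the lists. Called cytokine and NF-kappaB genes not shown are Lif, Il1rn, Csf1 and Nfkbib (higher) and Cx3cl1, Cxcl17 and Birc3 (lower).

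NF-kappaB genes were mixed, with 4 of 19 higher and 2 lower, 31.6% called against 8.22% of all genes. Their median was 0.36 (1.17 with equal spikes, where 12 were called higher and 1 lower). Relb, a subunit of the non-canonical branch, had 474, 465 and 483 in KC3 and 89.4, 81.1 and 96.5 in KC4 and differed by 2.42 (SE 0.33, adjusted p = 0.000421), and its partner Nfkb2 had 854, 783 and 705 in KC3 and 236, 269 and 251 in KC4 and differed by 1.63 (SE 0.093, adjusted p = 1.90e-06). The inhibitors Nfkbie (2.15 ± 0.28) and Nfkbib (1.14 ± 0.25) were higher, but Nfkbie was not called at a floor of 64 and Nfkbib not with the mean of its probe sets. Bcl3, a nuclear cofactor of NF-kappaB, was lower, at 79.0, 85.1 and 73.6 in KC3 and 491, 512 and 472 in KC4 (-2.63 ± 0.14), and so was the ubiquitin ligase gene Birc3 (-1.29 ± 0.28), which was not called with the mean of its probe sets. Birc3 lost the call with equal spikes.

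Interferon-stimulated genes held 5 of 29 lower and 0 higher, 17.2% called against 8.22% of all genes. Their median was -0.40 (0.41 with equal spikes, where 4 were called higher and 1 lower). The RNA sensor gene Ifih1 had 112, 102 and 108 in KC3 and 292, 257 and 272 in KC4 (-1.35 ± 0.081) and the antiviral synthetase gene Oas1a had 25.8, 45.0 and 54.9 in KC3 and 203, 223 and 223 in KC4 (-2.44 ± 0.47). Parp14 (-1.44 ± 0.16) and the nucleic acid sensor Zbp1 (-1.50 ± 0.44, 1 KC3 array at the floor) were dim, and neither was called at a floor of 64 or with the mean of its probe sets. Zbp1 also lost its call with the 6 arrays alone and without KC3 replicate 1 (-1.37), without KC3 replicate 2 (-1.26), without KC4 replicate 1 (-1.37) or without KC4 replicate 2 (-1.35). In antigen processing for MHC class I 1 of 15 genes was called (6.67%; 4 were called higher and 0 lower with equal spikes), Psme1, an activator of the proteasome, lower at 961, 934 and 835 in KC3 and 2306, 2066 and 2136 in KC4 (-1.25 ± 0.07). The class I gene H2-K1 was not called (0.39 ± 0.04). Ifih1, Parp14, Zbp1 and Psme1 lost the call with equal spikes.

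Of 38 genes of the NRF2 response, glutathione and the pentose phosphate route 13 were lower in KC3 and 1 higher. The share was 36.8% called against 8.22% of all genes. The median of -0.50 became 0.31 with equal spikes, where 5 were called higher and 6 lower. Aldh3a1, an aldehyde dehydrogenase, had 94.0, 95.5 and 71.9 in KC3 and 1628, 1681 and 1635 in KC4 and differed by -4.25 (SE 0.12, adjusted p = 2.69e-08). The microsomal glutathione transferase Mgst2 had 298, 320.4 and 278 in KC3 and 2975, 2564 and 2758 in KC4 and differed by -3.21 (SE 0.075, adjusted p = 1.22e-08). Gsta4, which conjugates lipid peroxidation products, had 172, 49.0 and 88.5 in KC3 and 1111, 948 and 1069 in KC4 and differed by -3.52 (SE 0.37, adjusted p = 8.25e-05). The KC3 arrays were lower in each, but KC1 and KC2 sat on different sides. They were near KC3 for Aldh3a1, at 153 and 133, and near KC4 or above it for Mgst2, at 3216 and 3012, and Gsta4, at 1683 and 2802. Cyba, given above, is counted among the 13 and differed most, but it is an NADPH oxidase subunit, a kind of gene that the list also holds. Aldh3a1 differed most among the other members. Mgst1 (-2.28 ± 0.062), Mgst3 (-1.05 ± 0.064), Gstm1 (-1.36 ± 0.21), Gsta2 (-1.80 ± 0.17), the quinone reductase Nqo1 (-2.27 ± 0.38), Gclm, of glutathione synthesis (-1.38 ± 0.095), catalase, Cat (-1.69 ± 0.19), the pentose phosphate enzyme Pgd (-1.33 ± 0.10) and Aldh1a1 (-1.22 ± 0.35) were lower too. Mgst3 was not called after median centring, and Aldh1a1 was not called with the 6 arrays alone or without KC3 replicate 2 (-0.85), without KC4 replicate 1 (-1.09) or without KC4 replicate 3 (-1.19). The exception was the glutathione transferase Gstm5, at 1374, 1478 and 1148 in KC3 and 620.1, 568 and 613 in KC4 (1.14 ± 0.089). The antioxidant response element, searched as TGACNNNGC on both strands, stood in 7 of 32 listed promoters against 13.45% of all. Mgst3, Gstm1, Gsta2, Gclm, Cat, Pgd and Aldh1a1 lost the call with equal spikes.

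**Figure D5:**
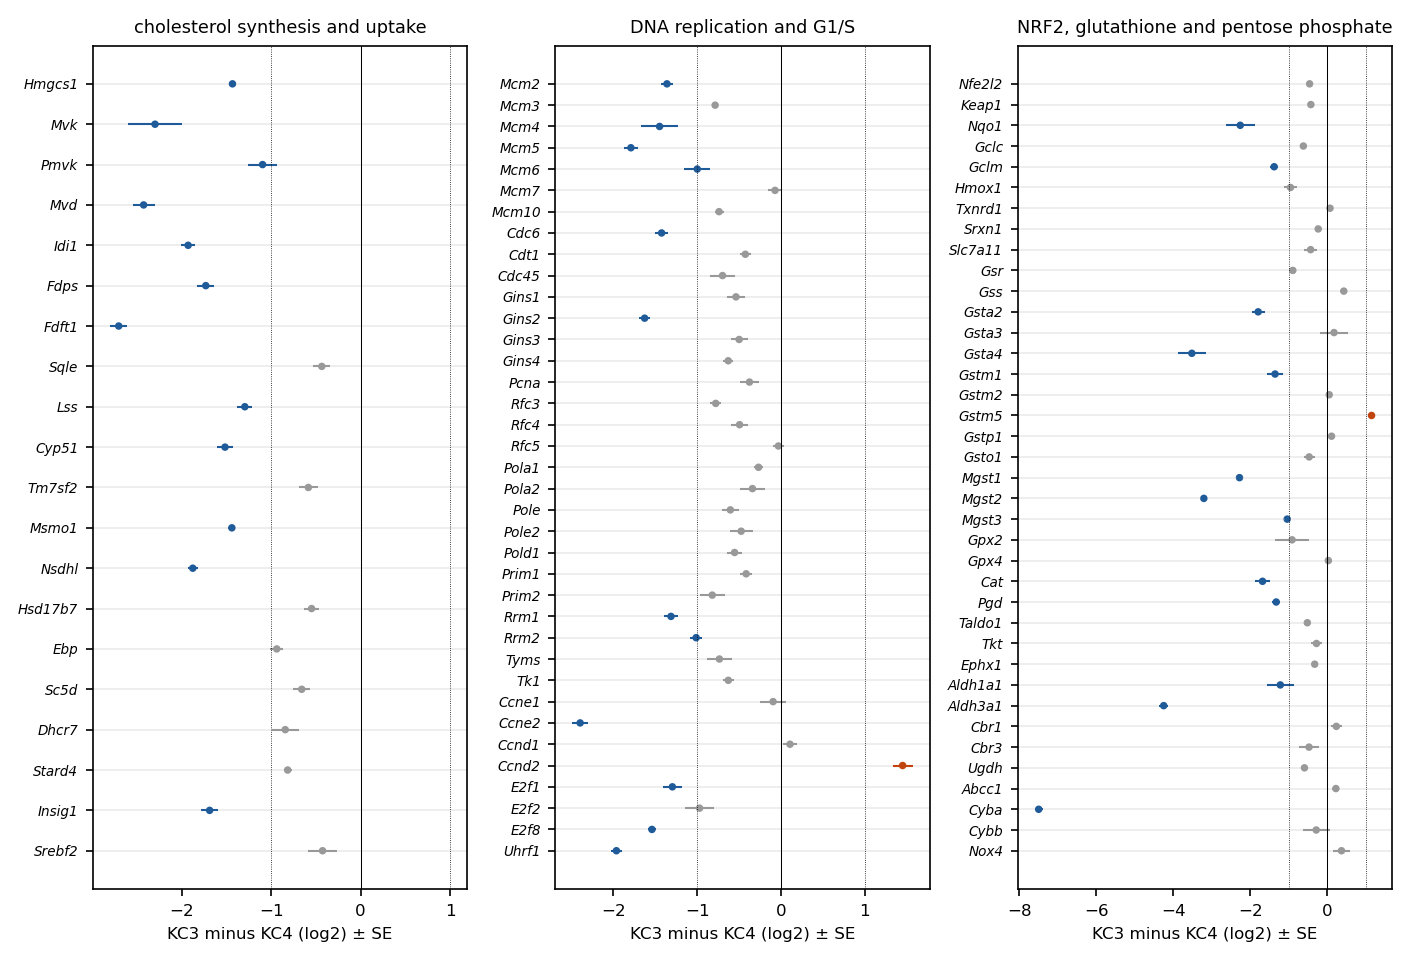
Log2 difference KC3 minus KC4 with its standard error (bar) for each measured member of 3 lists, with called genes coloured, other genes grey and dotted lines at a difference of 1 either way. All 20 cholesterol genes and 35 of the 37 replication genes lie below 0. The third list, which also holds NADPH oxidase genes, reaches down to one of these, Cyba, at -7.50. With equal poly-A spikes each point would stand 0.81 further right.

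Glycolysis and hypoxia genes went both ways, with 3 of 31 higher and 4 lower, 22.6% called against 8.22% of all genes. Their median was -0.35 (0.46 with equal spikes, where 7 were called higher and 1 lower). The hypoxia-induced genes Ankrd37, at 80.1, 101 and 108 in KC3 and 459.9, 400.1 and 382 in KC4 (-2.11 ± 0.15), Bnip3 (-1.47 ± 0.10) and Egln3 (-1.73 ± 0.38) were lower, Egln3 not being called with the 6 arrays alone, as was the lactate carrier gene Slc16a3 (-1.31 ± 0.24), which was not called without KC3 replicate 1 (-0.98). The carbonic anhydrase genes Car9, at 208, 209 and 187 in KC3 and 92.5, 100.4 and 83.8 in KC4 (1.13 ± 0.088), and Car12 (1.05 ± 0.12) were higher, and so was Pfkfb3, which makes an activator of glycolysis (1.20 ± 0.20). Car12 and Pfkfb3 were not called with the mean of their probe sets, Car12 also not without KC3 replicate 3 (1.0), and Pfkfb3 not without KC4 replicate 1 (1.0). Respiratory chain genes held 1 call among 37 (2.70%), the muscle-type subunit Cox7a1, lower at 30.8, 69.2 and 58.4 in KC3 and 184, 163 and 163 in KC4 (-1.76 ± 0.26), around a median of -0.05 that turned to 0.08 after centring and 0.76 with equal spikes, where 7 were called higher and 0 lower. Bnip3, Egln3, Slc16a3 and Cox7a1 lost the call with equal spikes.

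Stress genes under ATF4 went both ways, with 3 of 37 higher and 5 lower, 21.6% called against 8.22% of all genes. Their median was 0.06 (0.87 with equal spikes, where 17 were called higher and 1 lower). Atf3 had 2526, 2610 and 2334 in KC3 and 724, 464 and 785 in KC4 and differed by 1.96 (SE 0.24, adjusted p = 0.000215). Ddit3, the CHOP factor, had 1470, 1574 and 1414 in KC3 and 659, 549 and 732 in KC4 (1.21 ± 0.15) and Nupr1 had 3957, 4779 and 3399 in KC3 and 1979, 1764 and 2224 in KC4 (1.02 ± 0.21). Ddit3 and Nupr1 were not called with the mean of their probe sets, and Nupr1 also not with the probe set chosen on the 6 arrays or without KC3 replicate 2 (0.89) or without KC4 replicate 2 (0.93). The lower ones included the lipoprotein receptor gene Vldlr (-2.16 ± 0.32), the disulfide isomerase Pdia4 (-1.75 ± 0.12), the mitochondrial folate enzyme Aldh1l2 (-1.72 ± 0.15) and the chaperone Dnajc3 (-1.23 ± 0.11). Pdia4 was not called with the mean of its probe sets, nor Dnajc3 with the probe set chosen on the 6 arrays. Of 26 p53 target genes 3 were higher and 1 lower, 15.4% called against 8.22% of all genes. Their differences were positive for 22, with a median of 0.39 (0.52 centred, 1.20 with equal spikes, where 19 were called higher and 0 lower). Trp53inp1 had 6950, 6984 and 6691 in KC3 and 2338, 2073 and 2588 in KC4 and differed by 1.56 (SE 0.11, adjusted p = 5.01e-06). Zmat3 (1.04 ± 0.084) and the death gene Bbc3 (1.04 ± 0.18) were higher. Zmat3 was not called without KC3 replicate 1 (1.0) or without KC4 replicate 1 (0.99), nor Bbc3 without KC4 replicate 2 (0.91) or after quantile normalization. Pmaip1, another death gene, was lower, at 815, 793 and 886 in KC3 and 1796, 1948 and 1786 in KC4 (-1.15 ± 0.074). Pdia4, Aldh1l2, Dnajc3 and Pmaip1 lost the call with equal spikes.

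Among signalling families the TGF-beta and BMP genes held the most calls, 11 of 41 lower and 4 higher, 36.6% called against 8.22% of all genes. Their median was -0.25 (0.56 with equal spikes, where 11 were called higher and 8 lower). The ligand Bmp4 had 134, 165 and 152 in KC3 and 3890, 3287 and 3438 in KC4 and differed by -4.56 (SE 0.11, adjusted p = 1.22e-08), KC1 and KC2 being low as well at 124 and 173. Inhbb, an activin subunit, had 109, 120 and 103 in KC3 and 1454, 1316 and 1354 in KC4 and differed by -3.64 (SE 0.091, adjusted p = 1.74e-08). Tgfb3 had 47.6, 8.60 and 14.3 in KC3 and 418, 436 and 386 in KC4 and was lower by 4.16 (SE 0.36, adjusted p = 2.56e-05, 2 KC3 arrays at the floor). The KC4 arrays were the higher ones for all 3. Other ligands lower in KC3 were Bmp2 (-1.43 ± 0.078) and the activin subunit Inhba (-2.60 ± 0.54), and the activin-binding inhibitors Fst (-1.82 ± 0.20) and Fstl3 (-2.13 ± 0.31) were lower as well. Among targets, Id1 had 1611, 1599 and 1370 in KC3 and 6947, 5928 and 6585 in KC4 and differed by -2.09 (SE 0.099, adjusted p = 5.36e-07), with Id3 (-1.58 ± 0.14), Id2 (-1.10 ± 0.10) and the inhibitory Smad6 (-2.20 ± 0.16) in the same direction. The ligand Bmp7 ran opposite to Bmp4, with 1304, 1201 and 1199 in KC3 and 232, 222 and 221 in KC4 and a difference of 2.46 (SE 0.096, adjusted p = 1.66e-07). Tgfb1 (1.16 ± 0.075), the latency protein Ltbp3 (1.67 ± 0.076) and Bmp6 (1.30 ± 0.32, 2 KC4 arrays at the floor) were also higher. Tgfb1 and Id2 were not called with the mean of their probe sets, Id2 not after median centring, and Bmp6 not at a floor of 64, with a pseudocount or with the 6 arrays alone, where Inhba lost its call too. Bmp2, Id3 and Id2 lost the call with equal spikes.

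Of 44 Wnt genes 2 were higher and 2 lower, a share of 9.09% beside 8.22% over all genes, with a median of -0.01 that turned to 0.12 after centring and 0.80 with equal spikes, where 11 were called higher and 1 lower. The ligand Wnt10a had 663, 768 and 699 in KC3 and 245, 226 and 228 in KC4 and differed by 1.60 (SE 0.071, adjusted p = 3.56e-07). The receptor Fzd6 had 351, 354 and 347 in KC3 and 1956, 1671 and 1718 in KC4 and differed by -2.34 (SE 0.092, adjusted p = 1.73e-07), although another probe set gave 0.11. The feedback target Axin2 was lower (-1.54 ± 0.31) and the receptor Lgr6 higher (1.01 ± 0.13), the latter near the minimum and not called after quantile normalization, with a pseudocount, with the mean of its probe sets or without KC3 replicate 1 (0.99), without KC3 replicate 2 (0.98) or without KC4 replicate 1 (0.91). The 19 Notch genes held 0 calls by limma and an unadjusted p under 0.05 for 7 (1 was called higher after centring, and 8 were called higher and 0 lower with equal spikes). The brightest members were Rbpj, the DNA-binding partner of Notch (0.91 ± 0.06), and Nrarp, a feedback inhibitor (0.39 ± 0.082). Axin2 lost the call with equal spikes.

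Of 22 YAP and TAZ genes 6 were lower and 1 higher, 31.8% called against 8.22% of all genes. Their median was -0.29 (0.52 with equal spikes, where 5 were called higher and 2 lower). Vgll3, a cofactor of TEAD, had 94.0, 93.5 and 100.4 in KC3 and 367, 418 and 368 in KC4 (-2.00 ± 0.12), and the kinase Lats2 had 781, 741 and 880.4 in KC3 and 1923, 2294 and 2089 in KC4 (-1.39 ± 0.13). Ccn1 and Nt5e, given above, belong here as well. Crim1 (-1.40 ± 0.41) was not called with the mean of its probe sets, with the 6 arrays alone or without KC3 replicate 1 (-1.26), without KC3 replicate 2 (-1.16), without KC4 replicate 2 (-1.23) or without KC4 replicate 3 (-1.44). Lats2 was not called with the mean of its probe sets. The higher one was the forkhead factor Foxf2, at 359, 363 and 485 in KC3 and 39.2, 59.8 and 54.8 in KC4 (2.98 ± 0.25), with KC1 and KC2 at 32.0 and 26.1. Lats2 and Crim1 lost the call with equal spikes.

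Of 34 integrin and focal adhesion genes 3 were lower and 1 higher (11.8%, against 8.22% of all genes), with a median of -0.24 (0.57 with equal spikes, where 6 were called higher and 0 lower). Vinculin, Vcl, had 2668, 2634 and 2433 in KC3 and 6430, 6133 and 6357 in KC4 (-1.29 ± 0.053) and the caveolar coat gene Cavin1 had 2909, 2575 and 2632 in KC3 and 6076, 6409 and 6744 in KC4 (-1.25 ± 0.063). Itgb2, an integrin chain known from leukocytes, was higher in KC3, at 2115, 2154 and 1924 in KC3 and 724, 706 and 645 in KC4 (1.58 ± 0.17), while the leukocyte marker Ptprc gave 42.3, 39.3 and 39.2 in KC3 and 48.2, 69.9 and 45.3 in KC4 and was not called. Itgb6 (-1.23 ± 0.24) was not called with the mean of its probe sets or without KC4 replicate 1 (-0.98), and Cavin1 not with the mean of its probe sets. Vcl, Cavin1 and Itgb6 lost the call with equal spikes.

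Growth factor genes held 4 higher and 7 lower of 42, 26.2% called against 8.22% of all genes. Their median of -0.01 turned to 0.12 after centring and 0.80 with equal spikes, where 17 were called higher and 5 lower. The binding proteins of insulin-like growth factors were on both sides. Igfbp7 had 371, 362 and 419 in KC3 and 7723, 6299 and 7157 in KC4 and differed by -4.20 (SE 0.095, adjusted p = 1.06e-08). Igfbp4 had 6627, 6581 and 6110 in KC3 and 818, 1018 and 934 in KC4 and differed by 2.81 (SE 0.088, adjusted p = 4.82e-08). Igfbp3 had 3277, 3671 and 3268 in KC3 and 623, 658 and 563 in KC4 and differed by 2.47 (SE 0.093, adjusted p = 1.37e-07). KC3 was thus low in Igfbp7 and high in the other 2. The co-receptors of VEGF and semaphorins also diverged, Nrp1 being lower, at 246, 217 and 305 in KC3 and 910, 1073 and 808 in KC4 (-1.86 ± 0.25), and Nrp2 higher, at 4402, 3945 and 4153 in KC3 and 1497, 1730 and 1814 in KC4 (1.31 ± 0.09). Pdgfc (-1.94 ± 0.076) and Fgf18 (-2.68 ± 0.55, 1 KC3 array at the floor) were lower and Fgf13 higher (2.58 ± 0.47, 2 KC4 arrays at the floor), although its second probe set gave -0.068. Of 44 ephrin, semaphorin and guidance genes 2 were higher, Efna1 (1.28 ± 0.092) and Epha1 (1.17 ± 0.15), and 2 lower, Sema3c, at 4178, 3674 and 4224 in KC3 and 9060, 8483 and 8869 in KC4 (-1.13 ± 0.082), and Sema4f (-1.42 ± 0.29). Their share of 9.09% lay near that of all genes (8.22%). The median of -0.07 turned to 0.06 after centring and 0.74 with equal spikes, where 11 were called higher and 0 lower. Epha1, with another probe set at -0.023, was not called with the mean of its probe sets. Sema3c and Sema4f lost the call with equal spikes.

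Of 34 genes of chromatin remodelling and methylation 3 were higher and 3 lower, 17.6% called against 8.22% of all genes. Their median of -0.05 turned to 0.08 after centring and 0.76 with equal spikes, where 7 were called higher and 2 lower. The de novo DNA methyltransferases were both higher in KC3, Dnmt3a at 841, 939.7 and 997 in KC3 and 283, 284 and 335 in KC4 (1.62 ± 0.087) and Dnmt3b at 529, 566 and 543 in KC3 and 184, 189 and 208 in KC4 (1.50 ± 0.093). KC1 and KC2 resembled KC4 in both, with Dnmt3a at 354 and 286 and Dnmt3b at 184 and 235. Another Dnmt3a probe set gave -0.24, and Dnmt3a was not called with the mean of its probe sets. Smarca2, a SWI/SNF ATPase, gave 152, 114 and 140 in KC3 and 4.31, 3.78 and 2.10 in KC4 and was higher by at least 3.07 (SE 0.10, adjusted p = 7.40e-08), all KC4 arrays being under the floor. On the probe set that was brightest over the 6 arrays it differed by -0.35 instead (adjusted p = 0.118), so this difference rests on 1 probe set. Smarcd3 of the same complex (-3.12 ± 0.46, 1 KC3 array at the floor) and the chromatin proteins Hmgn3, at 102, 76.5 and 132 in KC3 and 578, 683 and 603 in KC4 (-2.62 ± 0.17), and Hmgb2 (-1.51 ± 0.19) were lower. Hmgb2 lost the call with equal spikes.

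Both lines carried Xist and little signal from the Y chromosome. Xist, the RNA of the inactive X, had 14640, 15090 and 14690 in KC3 and 11790, 10710 and 11620 in KC4, and Eif2s3y, a Y-linked gene, had 28.0, 1.60 and 2.50 in KC3 and 30.4, 3.49 and 9.36 in KC4. The Y-linked Kdm5d gave 18.9, 21.4 and 41.2 in KC3 and 15.3, 30.8 and 23.3 in KC4 and Uty 20.8, 18.9 and 25.9 in KC3 and 33.9, 21.6 and 22.4 in KC4. KC1 and KC2 differed from both lines, with Xist at 170.4 and 187 and Uty at 1132 and 192. The 8 measured sex-linked transcripts held 0 calls by limma between KC3 and KC4, and an unadjusted p under 0.05 for 2 (3 were called higher and 0 lower with equal spikes).

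The brightest called genes show moderate differences with small errors. Tuba1a, an alpha tubulin, had 6489, 6388 and 6491 in KC3 and 15890, 14360 and 15310 in KC4 and differed by -1.23 (SE 0.049, adjusted p = 1.88e-07). Slc12a2, the sodium, potassium and chloride carrier, had 9906, 10340 and 9461 in KC3 and 4901, 4671 and 5157 in KC4 and differed by 1.01 (SE 0.048, adjusted p = 5.34e-07). Slc25a4, which exchanges ADP and ATP across the inner mitochondrial membrane, had 5425, 5857 and 4914 in KC3 and 11130, 11030 and 11810 in KC4 and differed by -1.07 (SE 0.068, adjusted p = 3.70e-06). The lines did not overlap for these genes. Mdh1, malate dehydrogenase of the cytosol (-1.05 ± 0.19), was lower and the transcript 1110038B12Rik higher (1.10 ± 0.054). Scd2, Rrm2, Myc, Gas5 and Snhg1, described above, are the other 5 of the 10. Several of these lie close to the minimum difference. Mdh1 and Slc25a4 were not called after median centring, Slc25a4 not with other choices of its probe set, Mdh1 not without KC3 replicate 2 (-0.86) or without KC4 replicate 3 (-0.96), and Slc12a2 not without KC3 replicate 2 (0.98) or without KC4 replicate 2 (0.98). Tuba1a, Slc25a4 and Mdh1 lost the call with equal spikes.

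Genes were also set in the order of their neighbours along the RefSeq annotation, in 599 runs of 15 genes that were bright in at least 1 of the lines (9102 genes). The median difference of a run was 0.06 in the middle, -0.33 at the 5th percentile and 0.41 at the 95th, with extremes of -0.71 and 0.61. Of the 10 lowest runs 8 came from 1 chromosome, the one that carries Col4a1, Col4a2, Gas6, Hmgb2, Slc25a4 and Ankrd37. All 33 of its runs had a median below 0, against 218 of the 599 runs (36.4%). The 507 genes on it had a median of -0.31. In KC1 minus KC4 their median was -0.39 and in KC2 minus KC4 -0.56, comparisons that share the KC4 arrays, while all genes in runs had 0.06 in KC3, -0.0054 in KC1 and -0.013 in KC2. KC4 was thus brighter than each other line over these genes by a small amount. With equal spikes the sign in KC3 would turn, since the shift of 0.81 exceeds it, but the gap to the other genes would not. DNA copy number was not measured, and its part was not tested.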

How the data were processed

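The values are signal intensities of 45101 probe sets that the authors deposited on a linear scale, 1 column per array. Per the labels' protocols, labelling and hybridisation followed the array maker's protocol. The software behind the intensities, and the genome build used to design the probe sets, are not given in the sources used here. Every mean without its 2% tails was about 500, so arrays were compared as deposited. Probe sets with 1 gene symbol in the platform annotation (34945) were used, those with several (932) or none (9160) were not named, and 34741 matched a RefSeq gene identifier. The number of arrays limits the precision.

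Signals under 16 were set to 16 and log2 was taken. The probe set with the highest mean stood for a gene. A limma fit (version 3.58.1, R 4.3.3) had 1 coefficient per line over the 12 arrays, with no block, and p-values were Benjamini-Hochberg adjusted over 18193 genes. The fit was tested on simulated data. A lower bound is given where all 3 arrays of the lower line were at the floor; where fewer were, their number is given. The members and gene lists were chosen with earlier results of these data known. Text names the 15 largest called differences each way among genes whose KC3 and KC4 arrays did not overlap. It also names up to 4 called members a list and direction, and the 10 brightest called genes. Where more members of a list are named, they are its other called members.

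Alternatives were another floor, a pseudocount, other probe set choices, median centring, quantile normalization, scaling to the poly-A spikes, filters on dim genes, a replicate block, and leaving out each array.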

Additional observations from a re-analysis of the deposited data

Results flagged for a closer look

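Some signals stood outside the gene comparison. The poly-A spike probe sets, which carry no mouse gene, differed by -0.81 (KC3 minus KC4, log2), and the 4 spikes dap, lys, phe and thr differed by -0.86, -1.19, -0.90 and -0.29. The 5-prime probe set of 18S ribosomal RNA had signals of 433, 439 and 369 in KC3 and 2706, 2828 and 4383 in KC4, a difference of -2.97. Its middle and 3-prime probe sets differed by -0.89 and -0.55. The 3-prime to 5-prime log2 difference of Actb was 0.16 ± 0.07 (SD, n = 3) in KC3 and 0.06 ± 0.03 in KC4, and that of Gapdh was -0.39 ± 0.04 and -0.33 ± 0.05. Of 9160 probe sets with no listed gene, 323 (3.53%) were called between KC3 and KC4, 109 higher and 214 lower in KC3. These calls came from a separate fit of all probe sets other than controls, with its own p adjustment. That share is not on the scale of the 8.22% of genes, for which the brightest probe set was taken. The part of these signals in the gene results was not tested.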

How the results depend on the processing

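The count of 1496 called genes (641 higher, 855 lower in KC3) became 5316 (5040, 276) with the arrays scaled to the poly-A spikes, a setting chosen after seeing the data, of which 917 were shared with the 1496. It became 6146 (3240, 2906) with no minimum difference, 358 (139, 219) with a minimum of 2, and 887 with 441 lower in the brighter genes, of which fewer were tested. Without 1 array it lay between 1402 and 1594, with 619 to 647 higher and 770 to 952 lower. With the replicate block it was 1459 (635, 824), and 0 of the 243 named called genes lost the call. Same-numbered arrays of KC3 and KC4 deviated together with correlations of 0.06, -0.08 and -0.0032, and other pairs with -0.13 to 0.13. With 3 arrays per line these values cannot show whether the numbers pair the arrays. Of the 243 genes 83 lost the call with spike scaling, 36 with the mean of all probe sets, 13 after median centring, 11 at a floor of 64, 9 each with quantile normalization or a pseudocount, 7 with the 6 arrays alone, and 7 to 13 without 1 array. Smarca2 turned to -0.35 (adjusted p = 0.118) with the probe set brightest over the 6 arrays. Of 37 list medians 23 changed sign with spike scaling, 9 after centring and 3 with quantile normalization. Beyond the alternatives' own construction, the cause was not tested. Replicate spread grew toward the floor, from a median SD of 0.09 at log2 means above 10 to 0.40 below 6.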
